A study of Mus musculus with 12 samples.

Results

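The genes described here are 46 regulators and executors of the cell division cycle in the mouse kidney, picked by name: 20 that act in G1 and S phase, 23 that act in G2 and mitosis, and 3 inhibitors of cyclin-dependent kinases. All 46 are among the 46403 genes counted, and 45 of them are among the 23742 genes with enough counts to be tested. The inhibitor gene Cdkn2a, which had 2 to 7 counts in each library, was left out of the tests. Polyadenylated RNA of the entire right kidney was sequenced in 12 libraries from mice with no treatment named in the labels, in a series that asks how the epithelial transcription factor Grhl2 bears on the growth of renal cysts. Wildtype mice (n = 5) are R26StopFLMYC; Grhl2 flox/flox: they carry floxed Grhl2 alleles and, at Rosa26, a MYC transgene kept silent by a floxed stop cassette. The Myc group (n = 3) is labelled as Myc overexpression, and its sample titles carry the code HET, where those of the other groups carry WT or KO. The sources used here give no cross for the Myc group and do not say which gene HET refers to, so its Grhl2 genotype is not spelled out. The Grhl2KO_Myc group (n = 4), labelled as Grhl2 knockout with Myc overexpression, came from HoxB7-Cre; Grhl2flox/+ mice bred to R26StopFLMYC; Grhl2flox/flox mice. All wildtype and Grhl2KO_Myc mice thus come from stocks with the floxed alleles, and mice with only the knockout are not among the groups analysed here. HoxB7-Cre is active in the ureteric bud and its descendants, the collecting ducts, so most cells of a whole kidney lack the recombinase. Ages of these mice are not stated in the labels. Whether each library is a mouse of its own is not stated, so the p-values cover the spread between these samples, which may be technical in part. Levels of Ddx3y and Xist, given below, differ within each group, so the libraries of a group are not all of the same mouse.

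Cells enter the division cycle when D-type cyclins with Cdk4 or Cdk6, and then E-type cyclins with Cdk2, phosphorylate the retinoblastoma protein and release E2F transcription factors, which switch on the genes of replication. Origins are licensed in G1 when Cdc6 and Cdt1 load the Mcm helicase onto DNA. Genes of G2 and mitosis are switched on later by Mybl2, Foxm1 and their partners at promoters that carry CHR and CCAAT elements, and their products drive chromosome segregation. Inhibitors of the INK4 family (Cdkn2a, Cdkn2c) bind Cdk4 and Cdk6, and Cdkn1b acts mainly on cyclin E with Cdk2. Most cells of a mature kidney rest outside the cycle, while growing and cystic kidneys hold more dividing cells.

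The promoters of 7 members are shown because G1/S and G2/M genes are known for different promoter words. Each run is the 150 bases just before the transcript start in the RefSeq promoter table (GRCm38.p6), printed 5′ to 3′ on the strand of the gene. Capitals mark words of 3 kinds on either strand: the E2F words (TTCCCGC, the word TTGGCGC, the word TTCGCGC and the word TTGCCGC), the CHR words (TTTGAA, and also the word TTTAAA), and the word CCAAT. The first 4 belong to G2/M genes, the next 2 to G1/S genes of the Mcm helicase, and the last to Cdkn2c, the member that differed most between groups.
Mki67: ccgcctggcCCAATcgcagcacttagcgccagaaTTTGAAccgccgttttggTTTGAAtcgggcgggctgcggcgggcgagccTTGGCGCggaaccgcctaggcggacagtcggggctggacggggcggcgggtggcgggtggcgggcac
Top2a: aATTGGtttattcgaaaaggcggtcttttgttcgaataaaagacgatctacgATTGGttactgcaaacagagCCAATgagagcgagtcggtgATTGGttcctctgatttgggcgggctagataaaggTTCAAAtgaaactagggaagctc
Kif11: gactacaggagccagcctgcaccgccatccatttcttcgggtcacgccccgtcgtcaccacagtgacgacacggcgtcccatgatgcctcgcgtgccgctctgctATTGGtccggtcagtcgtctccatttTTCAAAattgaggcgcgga
Cdk1: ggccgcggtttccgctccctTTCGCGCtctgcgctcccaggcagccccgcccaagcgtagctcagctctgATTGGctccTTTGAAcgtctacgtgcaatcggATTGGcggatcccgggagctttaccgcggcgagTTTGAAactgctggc
Mcm5: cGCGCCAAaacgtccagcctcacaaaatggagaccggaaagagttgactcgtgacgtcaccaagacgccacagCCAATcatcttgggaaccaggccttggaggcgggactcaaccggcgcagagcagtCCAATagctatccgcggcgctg
Mcm6: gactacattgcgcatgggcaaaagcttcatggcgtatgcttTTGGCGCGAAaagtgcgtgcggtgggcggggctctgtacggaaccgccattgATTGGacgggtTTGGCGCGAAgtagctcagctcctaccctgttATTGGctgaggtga
Cdkn2c: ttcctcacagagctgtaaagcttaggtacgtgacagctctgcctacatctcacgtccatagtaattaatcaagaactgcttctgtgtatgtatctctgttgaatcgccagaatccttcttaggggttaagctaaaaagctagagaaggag
These windows are chr7:135716380-135716529 (minus strand) for Mki67, chr11:99024190-99024339 (minus strand) for Top2a, chr19:37376232-37376381 (plus strand) for Kif11 and chr10:69352913-69353062 (minus strand) for Cdk1, where 26 bases lie in an annotated exon. They are chr8:75109359-75109508 (plus strand) for Mcm5, chr1:128359706-128359855 (minus strand) for Mcm6 and chr4:109665373-109665522 (minus strand) for Cdkn2c. The Cdkn2c window precedes the later of its 2 listed starts, lies inside the gene outside any exon and holds none of the words, while an E2F word stands 25 bases before its other start. Of the 46 members 36 had an entry in the table, and the 250 bases before each start were searched. CHR and CCAAT words stood together in 10 of the 17 G2/M members with an entry (58.8%) and in 3 of 16 G1/S members (18.8%), against 10.1% of the 27025 genes in the table. E2F words stood in 6 of 16 G1/S members (37.5%) and in 3 of 17 G2/M members (17.6%), against 9.01% of all genes. The E-box CACGTG, a word bound by MYC with its partner MAX, stood in 2 of 16 G1/S members, Cdk4 and Cdk6, and in 0 of 17 G2/M members, against 6.86% of all genes. An E2F word shared bases with a CCAAT word in 1 member. A word that matches is a description of the sequence and does not show that a factor binds there.

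Total counts per library lay between 52973520 and 108164810. Levels are given as CPM, the count of a gene relative to the TMM-scaled size of its library, and differences as log2 fold changes with a standard error (SE). Adjusted p-values come from edgeR's quasi-likelihood test with Benjamini-Hochberg adjustment over all 23742 genes, and a gene is called where that value is under 0.05. Grhl2 itself was at 18.5 to 24.3 CPM in Grhl2KO_Myc, 28.2 to 33.0 CPM in Myc and 23.9 to 29.2 CPM in wildtype (Grhl2KO_Myc against Myc -0.51, SE 0.10, adjusted p = 0.0443; against wildtype -0.29, SE 0.092, adjusted p = 0.0816), over all cells of the kidney, with or without Cre. The mouse Myc gene was at 19.8 to 34.4 CPM in wildtype, 19.1 to 27.6 CPM in Myc and 27.0 to 32.2 CPM in Grhl2KO_Myc and was not called in any comparison, and the labels do not say whether reads of the transgene are counted there. Libraries differed within groups. The summed level of 20 proximal tubule markers was 1760 CPM in wildtype 4, 1876 CPM in Grhl2KO_Myc 3 and 1990 CPM in Grhl2KO_Myc 4, against 3696 to 6589 CPM in the other 9 libraries. Erythroid markers summed to 1793 CPM in wildtype 4 and to 642 to 1144 CPM elsewhere. The collecting duct markers, those of the cells that HoxB7-Cre marks, summed to 624 to 932 CPM in wildtype and to 732 to 889 CPM in Grhl2KO_Myc. Slc4a1 is in both the collecting duct and the erythroid list, so erythroid RNA can enter the collecting duct sum. The highest wildtype sum, 932 CPM, was that of wildtype 4. None of the markers of these lists was at 0 in all libraries. The Y-linked gene Ddx3y had 62.8 to 81.2 CPM in 4 libraries (wildtype 5, Myc 3, Grhl2KO_Myc 1, Grhl2KO_Myc 4) and 1.33 CPM or less in the rest. Xist, the transcript of the inactive X chromosome, had 871 to 1006 CPM in 7 of the 8 with little Ddx3y, while Grhl2KO_Myc 3 was low in both transcripts (Xist 0.213 CPM). The term for Y-linked transcripts used below is set by Ddx3y and places that library with the other 7. Yam1, Rn18s-rs5 and Lars2, summed where counted as a stand-in for ribosomal RNA reads, took 5.55% of the counts of Myc 1 and at most 0.581% of the others.

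Per kilobase of exon, the most abundant members in wildtype kidneys were Ccnd1 (95.3 ± 5.68 CPM per kb, n = 5), Cdk4 (85.0 ± 3.74) and the replication clamp gene Pcna (56.3 ± 5.84), which stand above 97.5%, 97.2% and 95.4% of all tested genes on that scale. The median tested gene was at 4.02 CPM per kb. Ccnb2 (35.2 ± 7.90 CPM per kb) and Cdc20 (31.6 ± 8.18 CPM per kb) had the highest means of the G2/M genes, followed by Ccna2 (28.6 ± 3.38 CPM per kb) and Top2a (25.0 ± 2.82 CPM per kb). Mki67, which encodes the antigen Ki-67 of dividing cells, was at 22.5 ± 1.38 CPM per kb, above 87.0% of tested genes. These mitotic transcripts thus stood above the median gene in whole wildtype kidneys. Cdkn2c stood at 5.12 ± 0.446 CPM per kb, near the middle of all tested genes (above 55.1%), and Cdkn1b at 18.2 ± 1.34 CPM per kb (above 83.5%). The lowest tested member was Cdc6 (2.47 ± 0.570 CPM per kb), and Cdkn2a was at 0.0375 ± 0.0159 CPM per kb.

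**Figure D1:**
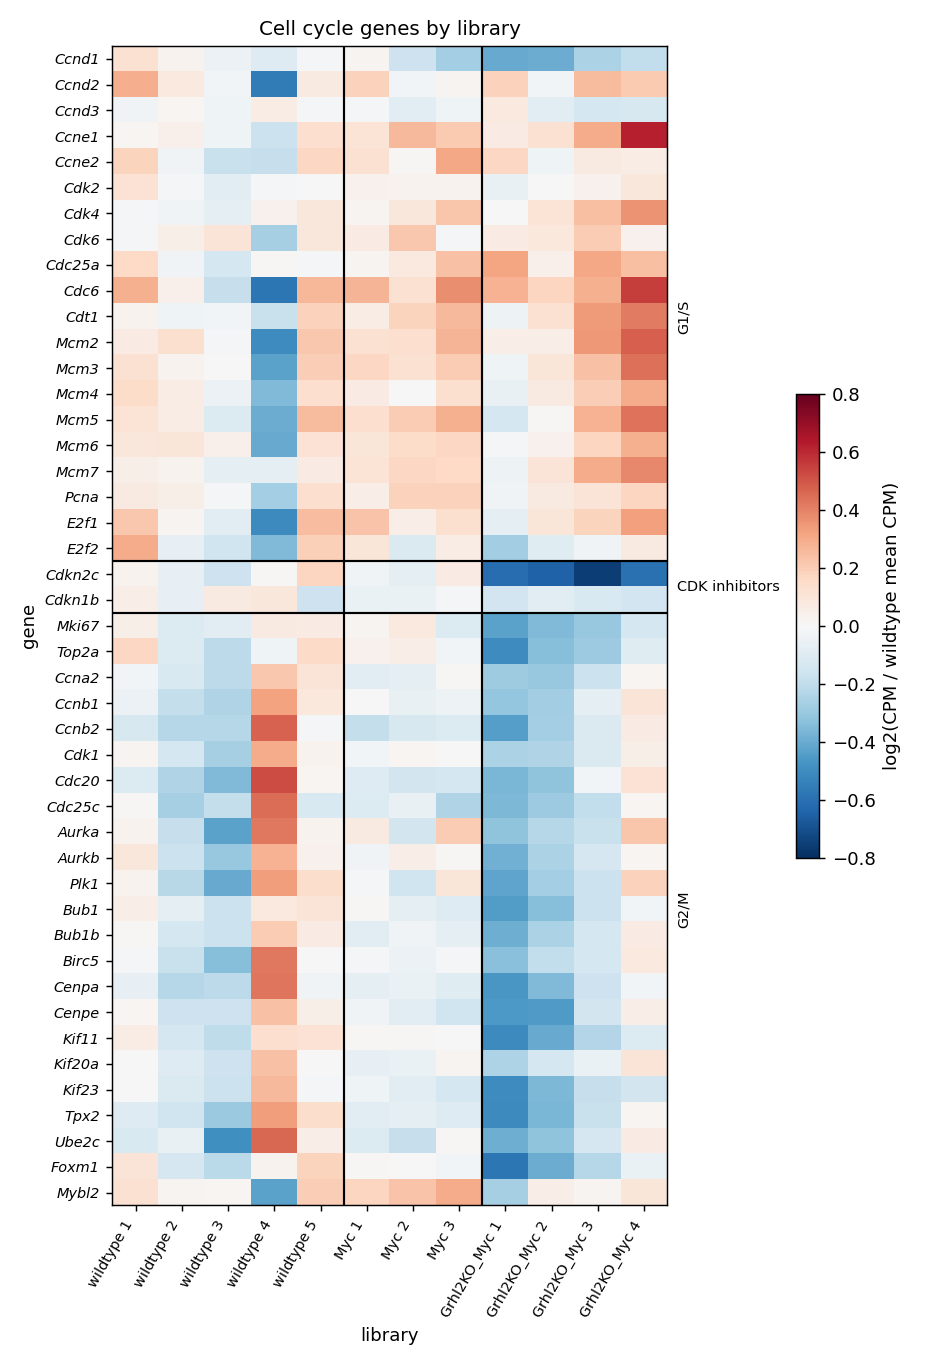
Level of the 45 tested members in each library, as the log2 ratio of its CPM to the wildtype mean (colour bar), with genes in rows by phase and libraries in columns by group. Grhl2KO_Myc columns are blue throughout for Cdkn2c, Ccnd1 and Mki67, among others. Most G2/M genes are blue in Grhl2KO_Myc 1, 2 and 3, palest in Grhl2KO_Myc 3. Wildtype 4 stands apart with high G2/M and low G1/S genes.

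Within the wildtype group the 2 phases parted in a single library. In wildtype 4, 19 of the 23 G2/M members lay above all other wildtype libraries and 16 of the 20 G1/S members lay below all of them, where 32.1% of all tested genes lay above and 32.6% lay below. Cdc20, the activator of the anaphase-promoting complex, was at 84.9 CPM in wildtype 4 against 46.3 to 59.7 CPM in the other 4 wildtype libraries. Ube2c, the ubiquitin-conjugating enzyme of that complex, was at 65.0 CPM against 33.6 to 49.0 CPM. In the opposite direction, all 9 licensing and replication genes were lowest in wildtype 4, among them Cdc6 at 8.65 CPM against 11.4 to 15.7 CPM and the helicase subunit gene Mcm2 at 60.8 CPM against 85.2 to 100.01 CPM. Ccnd2 was at 94.6 CPM there against 137 to 171 CPM, while Cdkn2c, at 13.8 CPM, lay inside the range of the others. Mybl2, listed here with G2/M although its own gene is an E2F target, was low with the G1/S genes at 15.1 CPM against 20.5 to 23.2 CPM. Wildtype 4 is also the library with the lowest proximal tubule and the highest erythroid marker levels given above, and the part of these in its cell cycle pattern was not tested.

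A score per library, the mean log2 CPM of a phase's genes minus its average in all 12 libraries, shows the same spread. Wildtype 4 had a G1/S score of -0.32 and a G2/M score of 0.33, a difference of 0.66, while that difference lay between -0.26 and 0.077 in the other 11 libraries. The Myc libraries were close together, with G1/S scores of 0.038, 0.019 and 0.086 and G2/M scores of 0.051, 0.039 and 0.052. The Grhl2KO_Myc libraries 1 to 4 had G1/S scores of -0.059, -0.033, 0.11 and 0.20 and G2/M scores of -0.32, -0.21, -0.070 and 0.11. Inside that group the members were ordered alike, since 23 of 23 G2/M members were highest in Grhl2KO_Myc 4 and 22 of 23 were lowest in Grhl2KO_Myc 1. Of the G1/S members 15 of 20 were highest in Grhl2KO_Myc 4 and 13 of 20 were lowest in Grhl2KO_Myc 1. The share of all tested genes with their highest or lowest value in these libraries was not computed. Proximal tubule markers summed to 5094, 4306, 1876 and 1990 CPM in the same 4 libraries, and their part in this order was not tested.

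**Figure D2:**
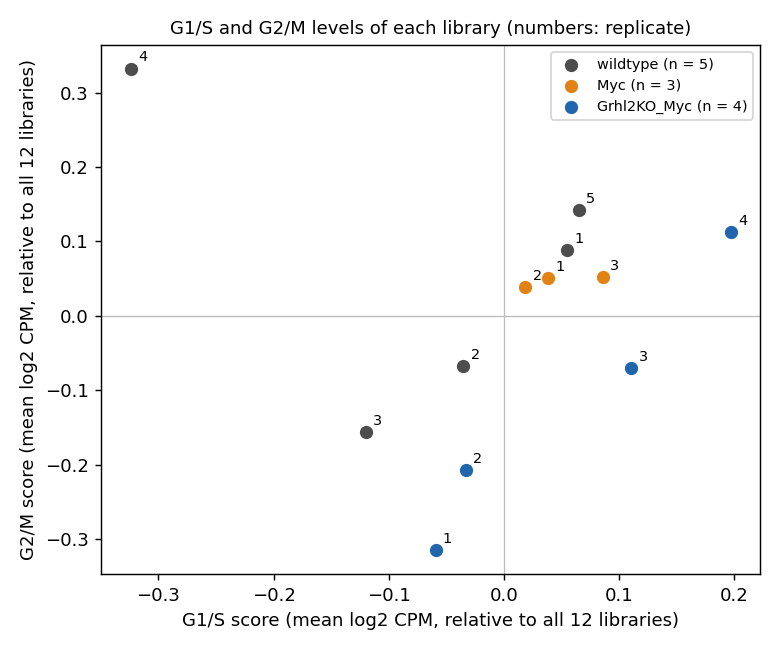
G1/S score (x axis) and G2/M score (y axis) of each library, both as mean log2 CPM relative to the mean over all 12 libraries, with the replicate number beside each point. The 4 Grhl2KO_Myc libraries are spread along both axes, each with its G2/M score below its G1/S score, the 3 Myc libraries lie close together, and wildtype 4 sits alone at a G1/S score of -0.32 and a G2/M score of 0.33.

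Myc kidneys were compared with wildtype kidneys, a contrast that the labels describe by Myc overexpression and by the codes HET and WT. No member passed the test: 0 of the 45 tested members were called by edgeR, where 0.00421% of all tested genes were (1 gene). None of the 45 had an unadjusted p under 0.05, where 4.62% of all tested genes did, and DESeq2 and limma-voom also called 0. For 44 of the 45 the 95% interval of the difference lay inside a 1.5-fold change in either direction, as it did for 15800 of all 23742 tested genes. The exception among the members, the licensing gene Cdc6, had an interval of -0.10 to 0.63 on the log2 scale. The 20 G1/S genes had a median log2 fold change of 0.14 with 18 above 0, and the 23 G2/M genes one of -0.033 with 5 above 0, while the median of all tested genes was 0.00014 and 50% of them lay above 0. Without wildtype 4 those medians were 0.075 and 0.033, so that the sign of the second rests on that library. Mcm7 was the only member whose Myc libraries all lay above every wildtype library, which 2.22% of all tested genes did, and 0 members had all lower, which 1.34% did. The smallest unadjusted p among members belonged to Mybl2, at a log2 fold change of 0.23 (SE 0.12, adjusted p = 0.999).

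Grhl2KO_Myc kidneys were set against wildtype kidneys, a contrast that joins the knockout and the overexpression. They were also set against Myc kidneys, which bears on what the knockout adds to that group, coded HET. Against wildtype 3 members fell, Cdkn2c, Mki67 and Ccnd1, and 0 rose, so that 6.67% of the 45 tested members were called, where 6.67% of all tested genes were (4.06% higher and 2.61% lower). Against Myc 1 member fell, Cdkn2c, where 0.842% of all tested genes were called (0.358% higher and 0.484% lower). The 2 comparisons share the Grhl2KO_Myc libraries, and both comparisons with wildtype share the wildtype libraries, so none is independent of the others. Against wildtype 14 of the 45 members had an unadjusted p under 0.05, 6 in each phase and 2 inhibitors, where 22% of all tested genes did. Against Myc 5 of the 45 did, 4 in G2/M and 1 inhibitor, where 13.3% of all tested genes did. In whole tissue, fewer cells of a type and less RNA of a gene per cell cannot be told apart.

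All 23 G2/M members had a log2 fold change below 0 against wildtype, with a median of -0.18 and a range of -0.31 to -0.016, where 51.5% of all tested genes lay below 0 and 48.5% above, and the median of all tested genes was -0.0074. All 23 also lay below 0 against Myc, with a median of -0.14 and a range of -0.32 to -0.0025, where 49.5% of all tested genes lay below 0 and 50.5% above. The 23 were ordered alike within Grhl2KO_Myc, so their signs are not 23 separate observations. The G2/M score of Grhl2KO_Myc 4 (0.11) lay above those of all Myc libraries (0.039 to 0.052), and the scores of the other Grhl2KO_Myc libraries lay below them. Of the 20 G1/S members 17 lay above 0 against wildtype, with a median of 0.15 and a range of -0.31 to 0.33, and Ccnd1, Ccnd3 and E2f2 lay below. Against Myc 12 of the 20 lay above 0, with a median of 0.019. These medians depend on which libraries enter. The G2/M median against wildtype was -0.11 without wildtype 4 and -0.28 without Grhl2KO_Myc 4, and the G1/S median was 0.053 without wildtype 4. Without the 3 libraries low in proximal tubule markers (wildtype 4, Grhl2KO_Myc 3 and Grhl2KO_Myc 4) the G1/S median against wildtype was -0.035 and that against Myc -0.11, while the G2/M medians were -0.24 and -0.33.

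**Figure D3:**
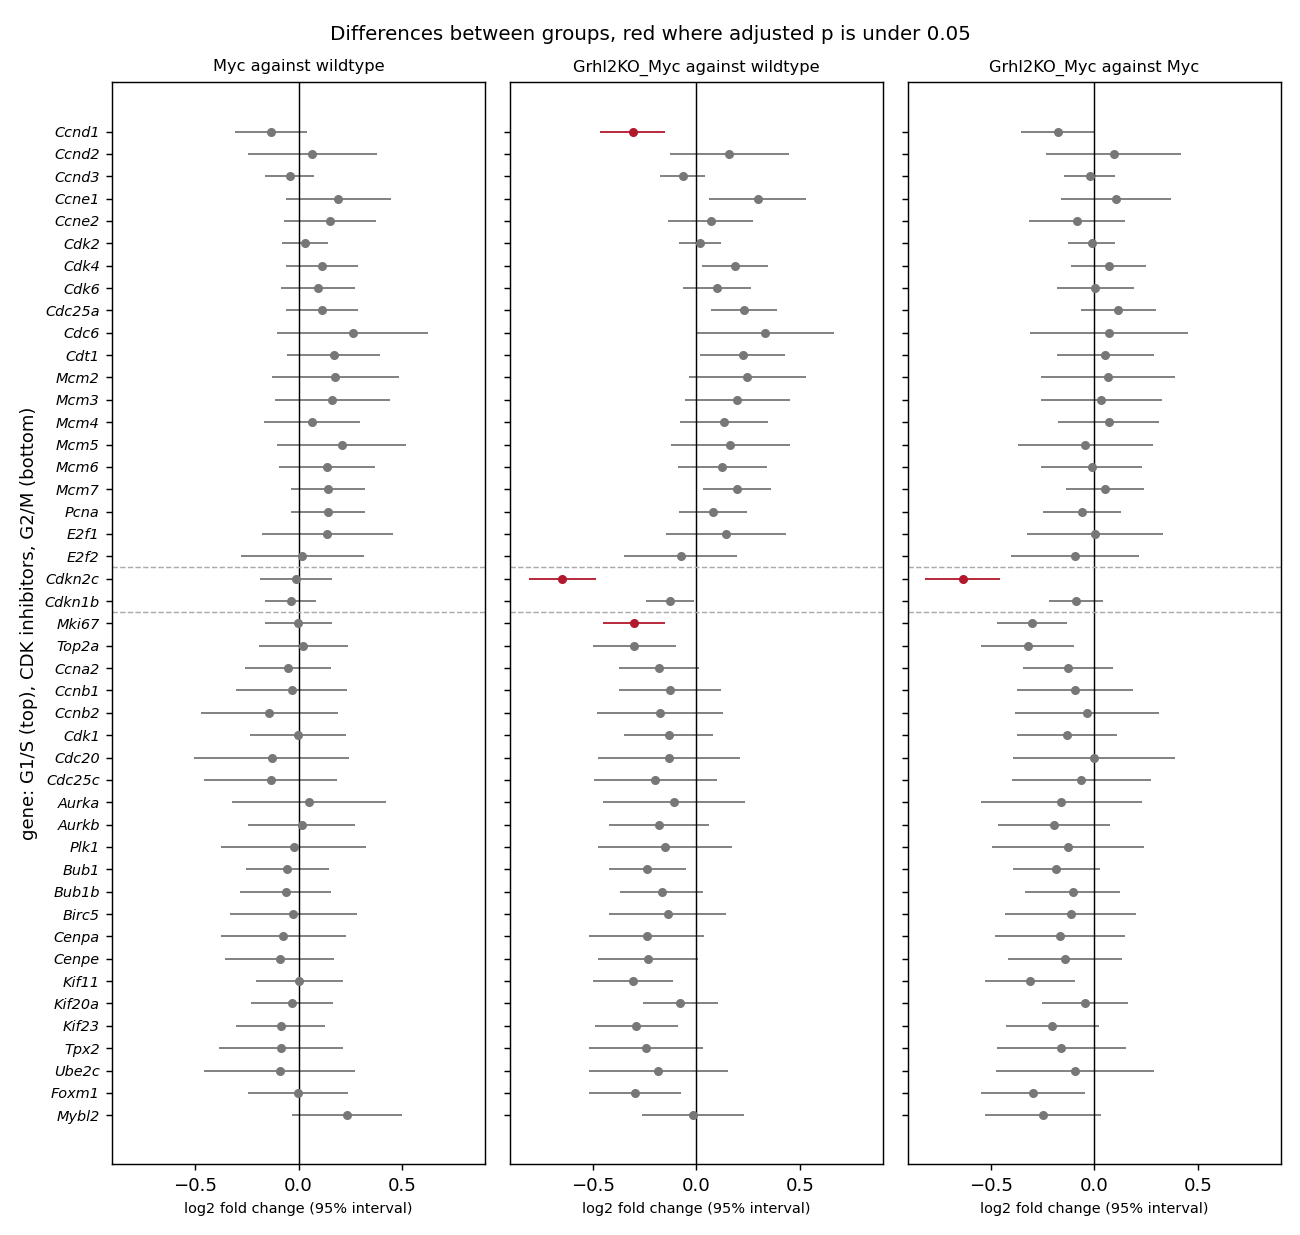
Log2 fold change of each tested member (points) with its 95% interval (bars) in the 3 comparisons, with G1/S genes at the top, CDK inhibitors in the middle and G2/M genes at the bottom. Red marks an adjusted p under 0.05: Ccnd1, Cdkn2c and Mki67 against wildtype and Cdkn2c against Myc, all lower in Grhl2KO_Myc.

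Among the CDK inhibitors, Cdkn2c (ENSMUSG00000028551.14, chr4:109660876-109667189, minus strand, mm10) showed the largest difference of any member. Cdkn2c read 14.0, 13.1, 12.3, 13.8 and 15.5 CPM in wildtype 1 to 5, 13.5, 13.0 and 14.4 CPM in Myc 1 to 3 and 9.02, 8.79, 8.16 and 9.11 CPM in Grhl2KO_Myc 1 to 4. Every Grhl2KO_Myc library lay below every library of both other groups, and those 2 groups overlapped. Cdkn2c was 1.57-fold lower in Grhl2KO_Myc (8.77 ± 0.427 CPM, SD, n = 4) than in wildtype (13.8 ± 1.197 CPM, SD, n = 5), a log2 fold change of -0.65 (SE 0.075, 95% interval -0.81 to -0.49, adjusted p = 0.000538). Against Myc (13.6 ± 0.686 CPM, SD, n = 3) it was -0.64 (SE 0.084, 95% interval -0.82 to -0.45, adjusted p = 0.00303), and Myc differed from wildtype by -0.012 (95% interval -0.19 to 0.16). The call against wildtype held without each library in turn (adjusted p 0.000525 to 0.00319), as did that against Myc (0.00237 to 0.0238), and without the 3 libraries low in proximal tubule markers the log2 fold changes were -0.63 (adjusted p = 0.00774) and -0.62 (0.0248). No annotated gene shares exon bases with Cdkn2c, and its product, an INK4 protein, restrains Cdk4 and Cdk6.

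Cdkn1b, which encodes the inhibitor of cyclin E with Cdk2, lay between 74.6 and 78.2 CPM in Grhl2KO_Myc, 79.8 and 82.5 CPM in Myc and 74.0 and 88.4 CPM in wildtype. It differed from wildtype by -0.13 (SE 0.053, adjusted p = 0.177) and from Myc by -0.089 (SE 0.060, adjusted p = 0.552), where its libraries did not overlap. Cdkn2a, the third inhibitor, had 3, 7, 2, 2 and 2 counts in wildtype, 4, 7 and 5 in Myc and 6, 3, 6 and 5 in Grhl2KO_Myc libraries. These few counts give no usable comparison.

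**Figure D4:**
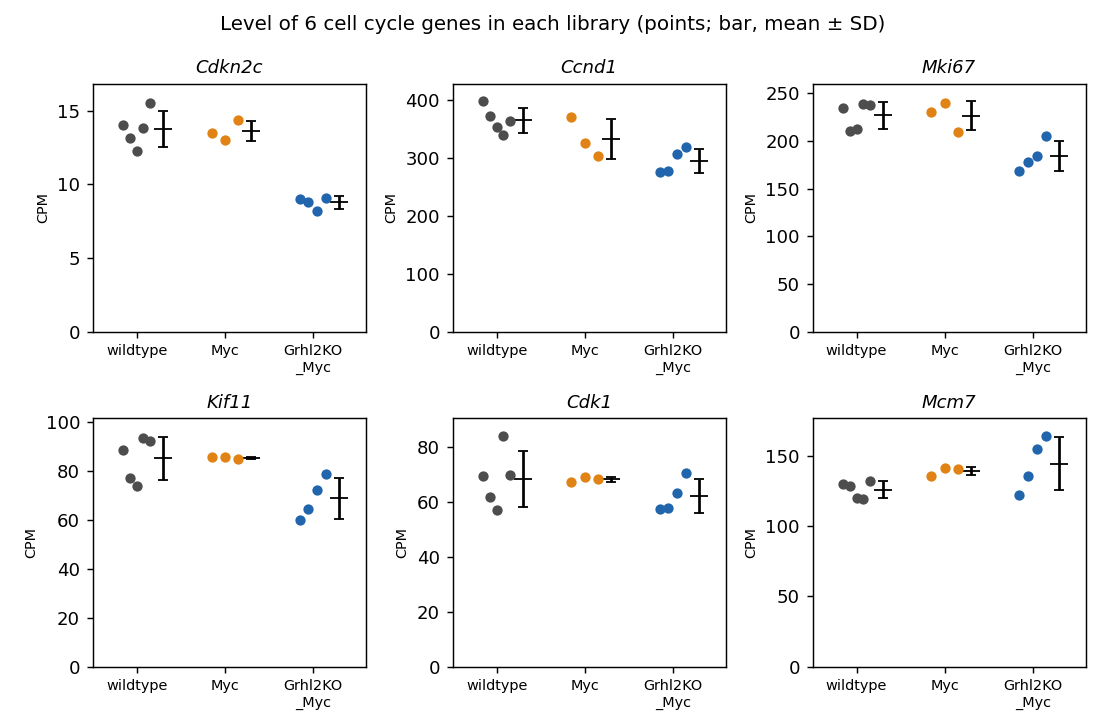
CPM of Cdkn2c, Ccnd1, Mki67, Kif11, Cdk1 and Mcm7 in each library (points) by group, with mean and SD as bars and axes that start at 0. The Grhl2KO_Myc points lie below all wildtype points for Cdkn2c, Ccnd1 and Mki67, and they overlap the wildtype points for Kif11, Cdk1 and Mcm7.

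Of the 9 cyclins, kinases and the phosphatase of G1 and S phase, 1 fell against wildtype and 0 rose. Ccnd1 (ENSMUSG00000070348.5, chr7:144929931-144939925, minus strand) encodes cyclin D1, the partner of Cdk4 and Cdk6. Ccnd1 read 398, 372, 354, 339.5 and 363 CPM in wildtype 1 to 5, 371, 326 and 303 CPM in Myc 1 to 3 and 276, 278, 306 and 319 CPM in Grhl2KO_Myc 1 to 4. The Grhl2KO_Myc libraries lay below all wildtype libraries, and the Myc libraries overlapped both groups. The level was 1.24-fold lower in Grhl2KO_Myc (295 ± 21.3 CPM, SD, n = 4) than in wildtype (365 ± 21.8 CPM, SD, n = 5), a log2 fold change of -0.31 (SE 0.073, 95% interval -0.47 to -0.15, adjusted p = 0.0268). Against Myc (333 ± 34.5 CPM, SD, n = 3) it was -0.18 (SE 0.083, adjusted p = 0.388), and Myc differed from wildtype by -0.13 (SE 0.079, adjusted p = 0.999). The call was lost without wildtype 1 (adjusted p = 0.0639), wildtype 2 (0.0586), Grhl2KO_Myc 1 (0.0691), Grhl2KO_Myc 2 (0.0684) or Grhl2KO_Myc 3 (0.0549) and with a term for Y-linked transcripts (0.0563). In mm10 Ccnd1 shares 1100 exon bases with LTO1 on the opposite strand, and these libraries do not mark strand, so reads of the 2 genes cannot be told apart there.

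Ccne1 encodes cyclin E1, which drives entry into S phase with Cdk2. Ccne1 read 13.3, 13.5, 12.8, 11.6 and 14.4 CPM in wildtype 1 to 5, 14.2, 15.7 and 15.2 CPM in Myc 1 to 3 and 13.7, 14.3, 16.1 and 20.2 CPM in Grhl2KO_Myc 1 to 4. Its highest value was in Grhl2KO_Myc 4, and Grhl2KO_Myc 1 and 2 lay inside the wildtype range. The log2 fold change against wildtype was 0.30 (SE 0.11, adjusted p = 0.126) and that of Myc against wildtype 0.19 (SE 0.12, adjusted p = 0.999). Cdc25a, a phosphatase that activates cyclin-dependent kinases, was at 43.9 ± 3.79 CPM (SD, n = 4) against 37.5 ± 2.80 CPM (SD, n = 5), a log2 fold change of 0.23 (SE 0.073, adjusted p = 0.0837). Cdk4 was at 314 ± 34.3 CPM (SD, n = 4) against 276 ± 12.2 CPM (SD, n = 5), a log2 fold change of 0.18 (SE 0.074, adjusted p = 0.163), so that the partner kinase of cyclin D1 lay on the other side of wildtype than the cyclin. The other 5, Ccnd2, Ccnd3, Ccne2, Cdk2 and Cdk6, lay between -0.067 and 0.16 with adjusted p of at least 0.470. Genes on the opposite strand share exon bases with several of these, among them Cdk4 (641 bases with Tspan31), Ccne2 (609 with Ints8), Ccnd2 (368 with 9330179D12Rik) and Ccnd3 (361 with Bysl).

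The 9 licensing and replication genes lay above 0 in both comparisons with wildtype, and 0 were called. Of all tested genes 50% lay above 0 in Myc against wildtype and 48.5% in Grhl2KO_Myc against wildtype. Within the wildtype group all 9 were lowest in wildtype 4, which lowers their wildtype means. Their median log2 fold change was 0.16 in Myc (0.064 to 0.26) and 0.20 in Grhl2KO_Myc (0.082 to 0.33). Against Myc it was 0.051 with 6 of 9 above 0, where 50.5% of all tested genes lay above 0. Mcm7 encodes a subunit of the replicative helicase. Mcm7 read 130.1, 129, 120.2, 119 and 132 CPM in wildtype 1 to 5, 136, 141 and 141 CPM in Myc 1 to 3 and 122, 135, 155 and 164 CPM in Grhl2KO_Myc 1 to 4. All Myc libraries lay above all wildtype libraries, while Grhl2KO_Myc 1 lay inside the wildtype range. Mcm7 shares 321 exon bases with Ap4m1 and 64 with Cops6 on the opposite strand. Its log2 fold change was 0.14 (SE 0.082, adjusted p = 0.999) in Myc and 0.20 (SE 0.076, adjusted p = 0.152) in Grhl2KO_Myc, and the latter was called without Grhl2KO_Myc 1 (0.26, adjusted p = 0.0419).

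Cdt1 loads the Mcm helicase onto origins together with Cdc6. Cdt1 read 35.3, 33.8, 34.1, 30.6 and 39.3 CPM in wildtype 1 to 5, 36.1, 39.3 and 41.5 CPM in Myc 1 to 3 and 33.7, 37.7, 43.9 and 46.2 CPM in Grhl2KO_Myc 1 to 4. The groups overlapped, with the 2 highest values in Grhl2KO_Myc 3 and 4. The log2 fold change of Cdt1 over wildtype was 0.22 (SE 0.095, adjusted p = 0.191), and without the 3 libraries low in proximal tubule markers it was -2.3e-05. Pcna encodes the clamp that holds DNA polymerase on its template. Pcna read 142, 139, 134, 112 and 148 CPM in wildtype 1 to 5, 139.8, 153 and 153 CPM in Myc 1 to 3 and 132, 142, 145 and 152 CPM in Grhl2KO_Myc 1 to 4. All 3 groups overlapped in Pcna, which differed from wildtype by 0.082 (SE 0.076, adjusted p = 0.574) in Grhl2KO_Myc and by 0.14 (SE 0.082, adjusted p = 0.999) in Myc, and by -0.044 in Grhl2KO_Myc without the same 3 libraries. Cdc6 had the largest estimate of the 9, 0.33 (SE 0.15, adjusted p = 0.234), with a range of 14.6 to 18.9 CPM in Grhl2KO_Myc and 8.65 to 15.7 CPM in wildtype. Mcm2 to Mcm6 lay between 0.12 and 0.25 over wildtype with adjusted p of at least 0.299. Pcna has 2 annotated pseudogenes in the count table, which can take up some of its reads. Of the E2F factor genes, E2f1 was at 0.14 (SE 0.13, adjusted p = 0.582) and E2f2 at -0.076 (SE 0.13, adjusted p = 0.769) against wildtype.

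Mki67 and Top2a, which encode Ki-67 and the topoisomerase that untangles chromosomes before mitosis, mark cells in cycle. Mki67 (ENSMUSG00000031004.8, chr7:135689784-135716361, minus strand) was the 1 G2/M member that passed the test. Mki67 read 234, 210.1, 213, 238 and 238 CPM in wildtype 1 to 5, 229.8, 239 and 209.7 CPM in Myc 1 to 3 and 168, 178, 184 and 205 CPM in Grhl2KO_Myc 1 to 4. Every Grhl2KO_Myc library lay below every library of the other groups, and Myc and wildtype overlapped. It was 1.23-fold lower in Grhl2KO_Myc (184 ± 15.8 CPM, SD, n = 4) than in wildtype (227 ± 13.9 CPM, SD, n = 5), at -0.30 on the log2 scale (SE 0.069, 95% interval -0.45 to -0.15, adjusted p = 0.0238). Against Myc (226 ± 15.2 CPM, SD, n = 3) the difference had the same size, -0.30 (SE 0.078, adjusted p = 0.113), and missed the threshold. The call against wildtype was lost without wildtype 1 (adjusted p = 0.0548), Grhl2KO_Myc 1 (0.0612), Grhl2KO_Myc 2 (0.0587) or Grhl2KO_Myc 3 (0.0636), and DESeq2 called Mki67 against Myc as well (adjusted p = 0.0223).

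Top2a read 252, 208, 195, 220.2 and 250.05 CPM in wildtype 1 to 5, 231, 234 and 221 CPM in Myc 1 to 3 and 159, 178, 184 and 211 CPM in Grhl2KO_Myc 1 to 4. The Grhl2KO_Myc libraries lay below all Myc libraries, and Grhl2KO_Myc 4 lay within the wildtype range. Top2a was at 183 ± 21.4 CPM (SD, n = 4), 225 ± 25.4 CPM (SD, n = 5) and 229 ± 6.49 CPM (SD, n = 3) in Grhl2KO_Myc, wildtype and Myc. Its log2 fold changes were -0.30 (SE 0.092, adjusted p = 0.0729) against wildtype and -0.32 (SE 0.10, adjusted p = 0.194) against Myc, close in size to those of Mki67 with a wider spread. Top2a was called against wildtype in 1 of the 12 edgeR fits that each left out 1 library (adjusted p = 0.0476).

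None of the 8 mitotic cyclins, kinases and the phosphatase were called, and all 8 lay below 0 in both comparisons with a median of -0.16 against wildtype and -0.13 against Myc. Cdk1 is the kinase that, with cyclin B, starts mitosis. Cdk1 read 69.5, 62.0, 57.0, 84.0 and 69.8 CPM in wildtype 1 to 5, 67.4, 69.2 and 68.5 CPM in Myc 1 to 3 and 57.5, 57.8, 63.3 and 70.8 CPM in Grhl2KO_Myc 1 to 4. The Grhl2KO_Myc values lay inside the wildtype range, with wildtype 4 the highest of all. Cdk1 was at -0.13 against wildtype (95% interval -0.35 to 0.080, adjusted p = 0.462) and at -0.13 against Myc (95% interval -0.38 to 0.11, adjusted p = 0.646). The cyclin genes Ccna2 (-0.18), Ccnb1 (-0.13) and Ccnb2 (-0.18), the kinase genes Aurka (-0.11), Aurkb (-0.18) and Plk1 (-0.15) and the phosphatase gene Cdc25c (-0.20) lay in the same range of log2 fold changes against wildtype, with adjusted p of at least 0.260. Ccna2 shares 510 exon bases with Exosc9 on the opposite strand, Cdc25c shares 623 with Gm3550, and Ccnb1 and Ccnb2 have annotated pseudogenes.

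The 5 kinetochore and checkpoint genes also all lay below 0, with a median of -0.23 against wildtype and -0.14 against Myc and 0 called. Bub1, a checkpoint kinase that senses unattached kinetochores, was at 32.6 ± 4.27 CPM (SD, n = 4) against 38.5 ± 3.08 CPM (SD, n = 5), a log2 fold change of -0.24 (SE 0.086, adjusted p = 0.125). Cenpa, the histone variant of centromeres, was at 58.8 ± 8.05 CPM (SD, n = 4) against 69.5 ± 14.0 CPM (SD, n = 5), a log2 fold change of -0.24 (SE 0.13, adjusted p = 0.298), and Cenpe, a kinetochore motor, was at -0.23 (SE 0.11, adjusted p = 0.245). Bub1b and Birc5, of the checkpoint and the chromosomal passenger complex, were at -0.17 and -0.14 against wildtype.

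The 4 spindle genes had a median of -0.27 against wildtype and -0.18 against Myc, with 0 called. Kif11 encodes the motor that pushes spindle poles apart. Kif11 read 88.7, 77.2, 74.0, 93.4 and 92.3 CPM in wildtype 1 to 5, 85.5, 85.6 and 85.0 CPM in Myc 1 to 3 and 59.8, 64.4, 72.4 and 78.8 CPM in Grhl2KO_Myc 1 to 4. The 3 Myc libraries were nearly equal and all lay above the Grhl2KO_Myc libraries, and Grhl2KO_Myc 3 and 4 reached into or near the wildtype range. Kif11 was at -0.31 (SE 0.089, adjusted p = 0.0612) against wildtype and at -0.31 (SE 0.10, adjusted p = 0.199) against Myc, and it was called against wildtype without wildtype 3 (adjusted p = 0.0431) or Grhl2KO_Myc 4 (0.0418) and by DESeq2 (0.0196).

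Kif23 encodes a motor of the central spindle that is needed for cytokinesis. Kif23 read 57.8, 53.6, 51.6, 69.5 and 57.3 CPM in wildtype 1 to 5, 56.6, 54.7 and 52.6 CPM in Myc 1 to 3 and 40.9, 45.2, 50.9 and 52.5 CPM in Grhl2KO_Myc 1 to 4. All Grhl2KO_Myc libraries lay below all Myc libraries, by a small margin for Grhl2KO_Myc 4. Kif23 was at -0.29 (SE 0.092, adjusted p = 0.0800) against wildtype and at -0.20 (SE 0.10, adjusted p = 0.425) against Myc. Tpx2, which activates Aurora A on the spindle, was at -0.25 (SE 0.13, adjusted p = 0.286) against wildtype, and Kif20a, a motor of the midzone that shares 1271 exon bases with Cdc23 on the opposite strand, was at -0.078 (SE 0.084, adjusted p = 0.638). Of the anaphase-promoting complex, Cdc20 was at -0.13 (SE 0.16, adjusted p = 0.676) and Ube2c at -0.18 (SE 0.16, adjusted p = 0.527) against wildtype, where Ube2c shares 592 exon bases with Tnnc2 on the opposite strand. Cdc20 had nearly equal means in Grhl2KO_Myc (53.9 ± 8.74 CPM, SD, n = 4) and Myc (54.0 ± 0.877 CPM, SD, n = 3).

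Foxm1 and Mybl2 encode transcription factors of the G2/M programme. Foxm1 read 64.8, 54.9, 52.0, 61.4 and 68.3 CPM in wildtype 1 to 5, 60.7, 60.4 and 59.4 CPM in Myc 1 to 3 and 40.5, 45.8, 51.5 and 58.1 CPM in Grhl2KO_Myc 1 to 4. The Grhl2KO_Myc libraries lay below all Myc libraries, and Grhl2KO_Myc 4 lay within the wildtype range. Foxm1 was at -0.30 (SE 0.10, adjusted p = 0.106) against wildtype and at -0.30 (SE 0.12, adjusted p = 0.288) against Myc. Mybl2 read 22.005, 20.5, 20.5, 15.1 and 23.2 CPM in wildtype 1 to 5, 22.8, 23.7 and 24.9 CPM in Myc 1 to 3 and 16.8, 21.0, 20.5 and 21.7 CPM in Grhl2KO_Myc 1 to 4. The Myc libraries lay above all Grhl2KO_Myc libraries, and wildtype 4 and Grhl2KO_Myc 1 were the lowest of all. Mybl2 was at -0.25 (SE 0.13, adjusted p = 0.437) against Myc and at -0.016 (SE 0.11, adjusted p = 0.953) against wildtype.

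Counted by libraries rather than by the test, 3 members had all Grhl2KO_Myc libraries below all wildtype libraries (Cdkn2c, Mki67 and Ccnd1), which 3.81% of all tested genes did, and 0 had all above, which 5.67% did. Against Myc 8 of the 45 did so (Cdkn2c, Cdkn1b, Mki67, Top2a, Kif11, Kif23, Foxm1 and Mybl2), which 7.89% of all tested genes did, and 0 had all above, which 8.95% did. Without the 3 libraries low in proximal tubule markers, 11 of the 45 members were called against wildtype, where 9.48% of the 23961 genes tested in that fit were (4.61% lower). All 11 were lower: Cdkn2c, Mki67, Ccnd1, Top2a, Bub1, Bub1b, Cenpa, Cenpe, Kif11, Kif23 and Foxm1. In that fit Foxm1 was at -0.48 (adjusted p = 0.0227), Top2a at -0.43 (0.0345) and Kif11 at -0.42 (0.0177), and 0 members were called higher. Against Myc 5 were called there, Cdkn2c, Mki67, Cenpa, Kif11 and Kif23, all lower, where 1.33% of all tested genes were called (0.901% lower). These 3 libraries were left out for their marker levels, which were known from earlier results of these data. Of the Grhl2KO_Myc group only libraries 1 and 2 remain in that fit, with G2/M scores of -0.32 and -0.21. Grhl2KO_Myc 3 and 4, which were left out, had higher scores (-0.070 and 0.11), and wildtype 4 had the highest of its group (0.33). The part of this choice of libraries in the calls was not tested. Some markers of other cell types were called in the fit of all 12 libraries. In that fit 2.61% of all tested genes were called lower against wildtype and 4.06% higher. There 3 of 6 podocyte markers fell against wildtype (summed 673 to 746 against 910 to 994 CPM), as did 3 of 10 endothelial markers (899 to 948 against 985 to 1094 CPM). Of 10 macrophage markers 1 rose (152 to 193 against 133 to 161 CPM). The 7 thick limb and distal tubule markers had a median of -0.47 against wildtype (summed 744 to 1080 against 827 to 1523 CPM) and of -0.52 against Myc (1175 to 1448 CPM, with no overlap), and 0 of them were called. Of the 12 collecting duct markers 1 rose and 1 fell against wildtype. Against Myc 2 of the 12 fell (summed 732 to 889 against 782 to 920 CPM), where 0.484% of all tested genes were called lower. Of the 20 proximal tubule markers 1 fell against wildtype, as did 1 of the 7 tested lymphocyte markers, which summed to at most 8.95 CPM in any library. The part of these cell types in the cell cycle differences was not tested.

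Other genes of the same pathways, listed by function and not among the 46, gave 3 calls in the comparison of Grhl2KO_Myc with wildtype and 0 in each of the other 2. The share of all tested genes called in that comparison was 2.61% lower and 4.06% higher. Of 38 measured mitosis genes 1 fell, a share close to that background, the chromokinesin gene Kif4. Kif4 read 39.3, 35.2, 33.7, 42.3 and 40.8 CPM in wildtype 1 to 5, 37.6, 38.6 and 36.3 CPM in Myc 1 to 3 and 27.7, 29.4, 31.6 and 34.2 CPM in Grhl2KO_Myc 1 to 4. Grhl2KO_Myc and wildtype overlapped in Kif4, at a log2 fold change of -0.32 (SE 0.079, adjusted p = 0.0338). The 38 genes had a median of -0.18 against wildtype with 36 below 0 and of -0.15 against Myc with 32 below 0. Of 16 genes of the retinoblastoma and E2F system 1 fell and 1 rose. Rbl2, a retinoblastoma relative that holds cell cycle genes silent in resting cells, was at 49.6 ± 1.27 CPM (SD, n = 4) against 58.4 ± 2.86 CPM (SD, n = 5), a log2 fold change of -0.23 (SE 0.045, adjusted p = 0.0101), with all Grhl2KO_Myc libraries below all wildtype libraries. Tfdp1, the DNA-binding partner of E2F factors, was at 96.0 ± 3.28 CPM (SD, n = 4) against 81.5 ± 5.62 CPM (SD, n = 5), a log2 fold change of 0.24 (SE 0.052, adjusted p = 0.0194), with all above. The Myc libraries (90.7 ± 1.29 CPM, SD, n = 3) also all lay above wildtype in Tfdp1, at 0.16 (SE 0.057, adjusted p = 0.999). Grhl2KO_Myc differed from Myc by 0.082 (SE 0.060, adjusted p = 0.587). Of 23 other replication genes 0 were called, with medians of 0.11 in Myc and 0.033 in Grhl2KO_Myc over wildtype and of -0.084 between Grhl2KO_Myc and Myc. Among 9 genes of the anaphase-promoting complex and its regulators and 4 other CDK inhibitor genes 0 were called, with medians of 0.014 and -0.26 against wildtype.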

How the data were processed

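RNA of mouse kidneys was sequenced in 12 libraries with polyA selection, without strand (TruSeq RNA v2, per the labels' protocols). Per the submitters' processing notes the tools include HISAT2 and the build mm10; no source used here names the counting program or annotation. Raw counts and exon widths of all genes stand in the table the authors deposited, and 0 of its columns belong to other samples. From it TMM-scaled CPM and fold changes were computed with edgeR 4.0.16 (filterByExpr, quasi-likelihood fit over all 3 groups, R 4.3.3), and p-values were adjusted by Benjamini-Hochberg over all tested genes. DESeq2 1.42.0 and limma-voom (limma 3.58.1) were alternatives, beside other filters, scalings, sample sets and covariates. The scripts were tested on simulated data. Exon overlaps and coordinates come from GENCODE M21 on mm10 and promoters from RefSeq. No 2 libraries of a group had counts that agree within sampling noise. Members and lists were chosen with earlier results of these data known. All 46 members could be named, with other pathway genes where called. A member was described in every library where called in any comparison or among the 6 smallest p of a comparison, and Mki67, Top2a, Ccnd1, Cdk1 and Pcna always.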

Additional observations from a re-analysis of the deposited data

Results flagged for a closer look

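In 3 of the 90 groups of 4 or 5 libraries examined, 1 library lay far from the others of its group by Dixon's criterion, which chance meets in about 1 in 20 groups. All 3 concern wildtype 4. Mcm6, a subunit gene of the replicative helicase, was at 109 CPM there, and the nearest wildtype library was at 148 CPM. Ccnb2, which encodes cyclin B2, was at 75.3 CPM with the nearest at 53.8 CPM, and the centromere gene Cenpa was at 93.6 CPM with the nearest at 68.0 CPM.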

How the results depend on the processing

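Cdkn2c kept its calls under all alternatives run. The 1 gene called for Myc against wildtype became 44 with DESeq2 and 0 with limma-voom, with only the 2 groups in the fit, with a replicate block or with a term for Y-linked transcripts. Against wildtype 1584 genes were called in Grhl2KO_Myc (965 higher, 619 lower), and 2703 with DESeq2 (1495 and 1208), 995 with 2 groups (629 and 366), 993 with the replicate block (641 and 352) and 998 with the Y-linked term (650 and 348). Against Myc 200 were called (85 and 115), and 777 with DESeq2, 88 with the block (25 and 63) and 318 without wildtype 4, Grhl2KO_Myc 3 and Grhl2KO_Myc 4. Members called against wildtype numbered 7 with DESeq2, 1 with the block and 11 without those 3 libraries, and against Myc 2 and 5 with DESeq2 and without the 3. Without those 3 the G1/S median against wildtype was -0.035 and the G2/M median against Myc -0.33.

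Leaving out 1 library each gave 0 to 6, 750 to 3778 and 70 to 703 genes called in the 3 comparisons (Myc against wildtype, Grhl2KO_Myc against wildtype, Grhl2KO_Myc against Myc), the highest of the last 2 without wildtype 4, and 0 to 0, 1 to 5 and 1 to 1 members. Members called against wildtype were 1 without wildtype 1 or Grhl2KO_Myc 3, 2 without wildtype 2, Grhl2KO_Myc 1 or Grhl2KO_Myc 2, and 5 without Grhl2KO_Myc 4. G1/S medians ranged over 0.075 to 0.16, 0.053 to 0.19 and -0.023 to 0.069, and G2/M medians over -0.10 to 0.033, -0.28 to -0.11 and -0.25 to -0.098.

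Values that changed sign were, for Myc against wildtype, Mki67 0.0046, Foxm1 0.0044 and Cdk1 0.0046 with no filter, Cdkn2c 0.0045, Foxm1 0.011 and Cdk1 0.012 with limma-voom, Kif11 -0.0017 with the Y-linked term, Cdkn2c 0.055, Mki67 0.059, Foxm1 0.10 and Cdk1 0.10 with the replicate block, and Mki67 0.016, Foxm1 0.0033 and Cdk1 0.081 without the 3 libraries. For Grhl2KO_Myc against wildtype they were Mybl2 0.0077 with limma-voom and 0.045 with the block, and Pcna -0.044 and Cdt1 -2.3e-05 without the 3 libraries, and against Myc they were Mcm7 -0.12, Ccne1 -0.10 and Cdt1 -0.13 without the 3 libraries. With 1 library left out, Myc against wildtype ranged over -0.064 to 0.083 for Cdk1, -0.053 to 0.032 for Cdkn2c, -0.054 to 0.043 for Foxm1, -0.045 to 0.041 for Kif11, -0.044 to 0.051 for Mki67 and -0.029 to 0.066 for Top2a. Grhl2KO_Myc ranged over -0.11 to 0.050 for Mybl2 against wildtype, and against Myc over -0.027 to 0.16 for Ccne1, -0.017 to 0.12 for Cdt1 and -0.017 to 0.12 for Mcm7. The cause of these changes was not tested.

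Replicate numbers did not pair the libraries: 10 same-numbered pairs correlated at -0.11 to 0.23, and 7 of 20 checks found a library closest to its own number. With the block the adjusted p of Ccnd1 was 0.0818 and that of Mki67 0.05001 against wildtype. Cdkn2a lies below the depth that allows a comparison.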
